A study of Mus musculus with 6 samples.

Results

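The annexin family was followed in C2C12 cells kept with or without sodium pyruvate, through every probe set whose only platform gene symbol was a listed annexin gene. Of 9 listed genes, 8 had such a probe set (Anxa1 to Anxa8), with 19 probe sets between them, out of 18193 genes and 45037 non-control probe sets in all. The remaining gene, Anxa11, shares its 1 probe set with other gene symbols and is not analysed here. The members were chosen on measured values, with the pyruvate against untreated signals of these same 6 arrays known. Values of the members in that contrast are therefore given as a description, with no test of their own.

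C2C12 is an established mouse myoblast line, a population of muscle precursor cells that can fuse into myotubes. All 6 samples were labelled as undifferentiated myoblasts. The 3 untreated samples were held for 72 h in basal DMEM with serum, glutamine and antibiotics, and the 3 pyruvate samples were held for the same 72 h in pyruvate-free DMEM with these supplements and 50 mM sodium pyruvate. The labels leave unsaid whether the basal DMEM held pyruvate, and no control for added sodium or osmolality was analysed here. Nothing in the labels ties the 3 samples of a condition to separate cultures. The p-values therefore reflect the scatter of these 6 arrays alone, and that scatter may be technical. In bulk RNA, fewer cells of a type and less RNA per cell cannot be told apart.

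Annexins are cytosolic proteins that bind acidic phospholipids, phosphatidylserine above all, when calcium rises. They share a conserved core of annexin repeats, and each has its own N-terminal tail, through which several bind a small EF-hand protein of the S100 group. In muscle they are known for gathering at tears in the sarcolemma, where annexins A1, A2, A5 and A6 take part in membrane repair together with dysferlin.

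Signals are MAS5 values on a linear scale, and log2 changes are differences of log2(signal + 16), pyruvate minus untreated, with standard errors from limma. A probe set entered the test when its mean over the 6 arrays was at least 5.53 on that log2 scale, a signal of about 30.3. The median signal of an array was 30.3 to 33.0, and arrays correlated at r = 0.985 to 0.991 within a group and 0.979 to 0.983 between groups, across probe sets, which are not independent replicates. Of the myoblast markers, Myod1, Myf5, Des and Cdh15 were above the filter and Pax7 was below it. At a limma adjusted p under 0.05, Myod1 was called higher (0.26), Myf5 (-0.65) and Cdh15 (-0.39) lower, and Des was not called. The 5 markers summed to signals of 5823 to 6166 on untreated and 5237 to 5552 on pyruvate arrays. Myotube markers were also measured in the untreated cells, against the label of undifferentiated cells. Their 10 genes summed to signals of 6404 to 6961 on untreated and 812 to 989 on pyruvate arrays, and 9 of 10 were called lower. Over all genes tested, 20.7% were called higher and 14.5% lower. The part of this myotube marker loss in the annexin values was not tested.

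For the annexins, the pyruvate cells differed from the untreated cells mainly in Anxa8, whose signal was 5.46 times as high. Anxa1, Anxa2 and Anxa3 had signals 1.31, 1.52 and 1.31 times as high. Anxa4, Anxa5, Anxa6 and Anxa7 had brightest probe sets within 1.08 times of the untreated mean in either direction. Of the 8 brightest probe sets, 4 were called higher at an adjusted p under 0.05 and 0 lower, where 20.7% of all 10685 genes tested were called higher and 14.5% lower. The median log2 change of the 8 was 0.25, beside 0.03 over all genes tested. All 3 pyruvate arrays lay above all 3 untreated arrays for 5 of the 8 genes, and below them for 0, where 28.6% and 20.0% of genes did so. Of other probe sets within 0.25 of each gene's log2 level, 30.9% to 98.8% were called higher for Anxa1 to Anxa7 and 22.9% for Anxa8. Because the family was chosen from this contrast, and most members are brighter than most genes, nothing is read from these counts.

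**Figure D1:**
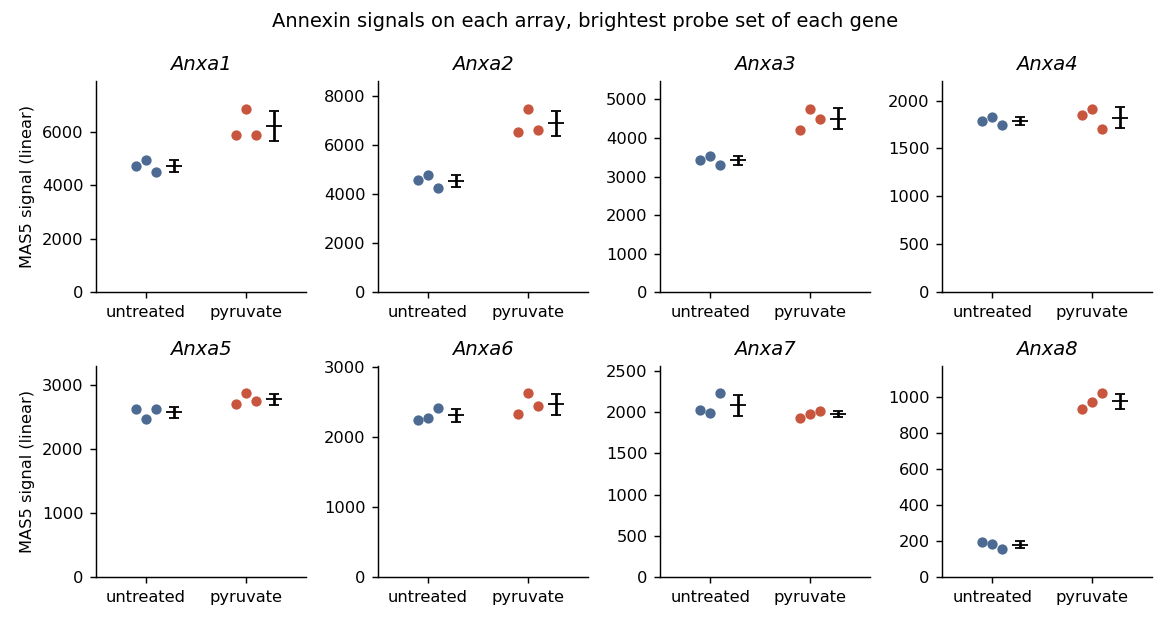
MAS5 signal (linear axis from 0) of the brightest probe set of each annexin gene on the 3 untreated and 3 pyruvate arrays; points are arrays, and the bar beside them is the mean ± SD (n = 3). The groups are separate for Anxa1, Anxa2, Anxa3, Anxa5 and Anxa8 and overlap for Anxa4, Anxa6 and Anxa7, and the gap is widest for Anxa8 (178 against 974).

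Promoter sequences are shown for the called members that have one in the RefSeq table of build GRCm38.p6, each from 250 bases before to 50 bases after the annotated start site, 5′ to 3′ on the gene's strand. Of the 9 listed genes 7 matched, and Anxa3 and Anxa6 did not. Both strands were searched for the TATA box (letters TATAAA), the CCAAT box, the SP1 GC box (letters GGGCGG), the AP-1 site (TGANTCA), the TEAD site or M-CAT element (CATTCC) and the E-box (CANNTG). Capitals mark every match but the E-box, and no marked matches overlap in the sequences shown. The Anxa8 window lies at chr14:34085729-34086028 on the plus strand, the Anxa1 window at chr19:20390622-20390921 on the minus strand and the Anxa2 window at chr9:69453433-69453732 on the plus strand.
Anxa8: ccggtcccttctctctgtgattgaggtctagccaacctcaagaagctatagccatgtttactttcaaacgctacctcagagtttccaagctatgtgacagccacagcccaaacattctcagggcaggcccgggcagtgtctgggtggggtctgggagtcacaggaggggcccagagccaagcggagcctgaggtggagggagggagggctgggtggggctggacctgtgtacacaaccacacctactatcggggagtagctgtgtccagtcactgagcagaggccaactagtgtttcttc
Anxa1: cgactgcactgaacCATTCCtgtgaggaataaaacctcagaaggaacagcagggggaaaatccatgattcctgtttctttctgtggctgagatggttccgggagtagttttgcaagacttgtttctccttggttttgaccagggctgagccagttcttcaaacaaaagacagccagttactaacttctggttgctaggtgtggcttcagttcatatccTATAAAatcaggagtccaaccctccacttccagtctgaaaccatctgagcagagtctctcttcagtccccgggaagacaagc
Anxa2: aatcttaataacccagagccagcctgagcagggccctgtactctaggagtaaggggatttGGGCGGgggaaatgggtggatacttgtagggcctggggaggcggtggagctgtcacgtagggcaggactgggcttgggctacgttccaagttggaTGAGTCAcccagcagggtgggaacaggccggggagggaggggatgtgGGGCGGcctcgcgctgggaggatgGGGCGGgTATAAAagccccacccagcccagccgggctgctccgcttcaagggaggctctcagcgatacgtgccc

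No motif searched was found in all 3 windows, while the TATA box was in those of Anxa1 and Anxa2. The Anxa8 window held none of the 6 motifs, which says only that these letters are not there. The Anxa1 window had a TATA box at -32 and an M-CAT element at -236 from the start site, and an E-box at 9. The Anxa2 window had a TATA box at -17, an AP-1 site at -95 and GC boxes at -190, -48 and -24. Among 32841 promoters of this length, TATAAA was in 13.6%, CCAAT in 37.4%, GGGCGG in 35.7%, TGANTCA in 7.81%, CATTCC in 14.7% and CANNTG in 72.3%. No window of Anxa4, Anxa5, Anxa7 or Anxa11 held a TATA box, AP-1 site or M-CAT element, while windows of Anxa4, Anxa7 and Anxa11 held the GC box on either strand. GC content was 57.3% for Anxa8, 47.3% for Anxa1 and 63.7% for Anxa2, inside the 10th to 90th percentile range of all promoters (39.7% to 69.7%). These matches are a description of the letters and show no factor at work.

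Anxa8 encodes a calcium-dependent phospholipid-binding protein found mostly in epithelia and first described as an anticoagulant. Its brighter probe set read 195.5, 182.2 and 157.2 on the untreated arrays and 931.7, 971.7 and 1019.8 on the pyruvate arrays. All 3 pyruvate values lay far above every untreated value, and no other member had so wide a gap in ratio. The dimmer probe set read 132.3, 140.2 and 149.3 untreated and 764.6, 763.4 and 791.9 with pyruvate. The log2 changes were 2.35 ± 0.08 and 2.33 ± 0.06 (SE), so the probe sets of Anxa8 gave the same size of change within their errors. Across the alternatives run, the log2 change ran from 2.10 to 2.45 for the first probe set and from 2.03 to 2.45 for the second. Of 1757 other probe sets within 0.25 of the mean log2 level of the first probe set, 0% had a change as high, and their median change was 0.00. Anxa8 was chosen with its change known, so this rank is a description and no test.

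Epithelial markers had a lower summed signal on the pyruvate arrays, and most of that sum was Epcam, at mean signals of 125 untreated and 84.6 with pyruvate. The 4 markers summed to signals of 195 to 199 on untreated and 112 to 157 on pyruvate arrays, and of the 2 above the filter Epcam fell by 0.48 (limma adjusted p = 0.015) and Krt8 was at -0.13 (adjusted p = 0.57). Cdh1 lay below the filter, with a mean signal of 10.8 in untreated and 3.07 in pyruvate cells. So did Krt18, at 24 and 20.5 with overlapping groups. Macrophage markers summed to 144 to 167 untreated and 157 to 211 with pyruvate. Of these 6 markers 2 passed the filter and 0 were called, beside 20.7% of all genes called higher and 14.5% lower. The part of either marker set in the Anxa8 values was not tested.

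The profiles nearest to Anxa8 over the 6 arrays, by Euclidean distance between log2 values centred on each gene's mean, were those of the chemokine gene Ccl7 (0.34), of Hdc, which encodes the histamine-making enzyme (0.34), and of Sgsm3 (0.40). They were picked for likeness to Anxa8, so being higher on all pyruvate arrays follows from the choice. Their signals were 335 ± 14.6 against 48.5 ± 6.45 for Ccl7, 110 ± 7.55 against 12.6 ± 4.45 for Hdc and 127 ± 4 against 17.8 ± 1.2 for Sgsm3 (SD, n = 3). The untreated means of Hdc and Sgsm3 lay under the filter signal of 30.3, so these genes passed the filter only through their pyruvate arrays. Of the 3 protein-coding genes on each side of Anxa8 on chromosome 14, 3 had a probe set of their own. A630023A22Rik, Npy4r and Gprin2 were all below the signal filter with overlapping groups, at mean signals of 4.67 and 12.0, 26.1 and 33.2, and 9.73 and 6.23 in untreated and pyruvate cells.

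Anxa2, whose product pairs with S100A10 and binds plasminogen at the cell surface, was the annexin with the next largest difference. Its brightest probe set read 4567.2, 4766.4 and 4258.0 untreated and 6536.1, 7470.1 and 6595.7 with pyruvate, with no overlap, a log2 change of 0.60 ± 0.06 (SE). A second probe set went the other way, from 121.9, 115.6 and 79.0 to 53.8, 57.3 and 49.7, a log2 change of -0.79 ± 0.14. By Affymetrix naming this is an x_at probe set, which holds probes that can match other transcripts as well. Whether that bears on its fall was not tested. Other x_at probe sets gave the S100a10 rise of 0.19 and the Epcam fall of 0.48 given elsewhere. The third Anxa2 probe set lay near 0, at mean signals of 1 and 3.27, and was not tested. Averaged over its probe sets with equal weight, the untested one near 0 included, Anxa2 changed by -0.01 ± 0.08, so its direction rests on the brightest probe set. The profiles nearest to that probe set were those of Ankrd1, a stretch-responsive muscle gene (distance 0.06, log2 change 0.63), of the lymphatic growth factor gene Vegfc (0.08, 0.57) and of Pdlim2 (0.08, 0.63). These genes too were picked for likeness, so their direction follows from the choice.

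Anxa1 encodes the annexin that carries part of the anti-inflammatory action of glucocorticoids and signals through formyl peptide receptors. Its brightest probe set read 4743.5, 4960.0 and 4494.4 untreated and 5890.8, 6877.0 and 5887.7 with pyruvate, a log2 change of 0.39 ± 0.07 (SE). The groups were separate, and the second array was the highest in each group, as it was for the brightest probe sets of Anxa2 and Anxa3. A dim probe set had overlapping groups, with means of 40.8 and 36.0 (-0.14 ± 0.15). Anxa3, an annexin abundant in neutrophils, had 1 probe set that read 3429.1, 3535.1 and 3310.7 untreated and 4218.0, 4763.3 and 4499.3 with pyruvate, a log2 change of 0.39 ± 0.06.

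The changes of Anxa1, Anxa2 and Anxa3 have to be read against other bright probe sets, which were also higher in pyruvate cells. The brightest 451 probe sets tested had a median log2 change of 0.340, beside -0.01 over all probe sets tested, and the highest signal was 6729 to 7255 on untreated and 9477 to 12133 on pyruvate arrays. Within 0.25 of the log2 level of Anxa1, 178 other probe sets had a median change of 0.43, above the 0.39 of Anxa1, and 98.3% were called higher. For Anxa2 the 164 such probe sets had a median of 0.45, and 11.6% had a change of at least 0.60. For Anxa3 the 210 such probe sets had a median of 0.27, and 22.9% had a change of at least 0.39. Anxa8 was less bright, and its 1757 such probe sets had a median change of 0.00, with 22.9% called higher.

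**Figure D2:**
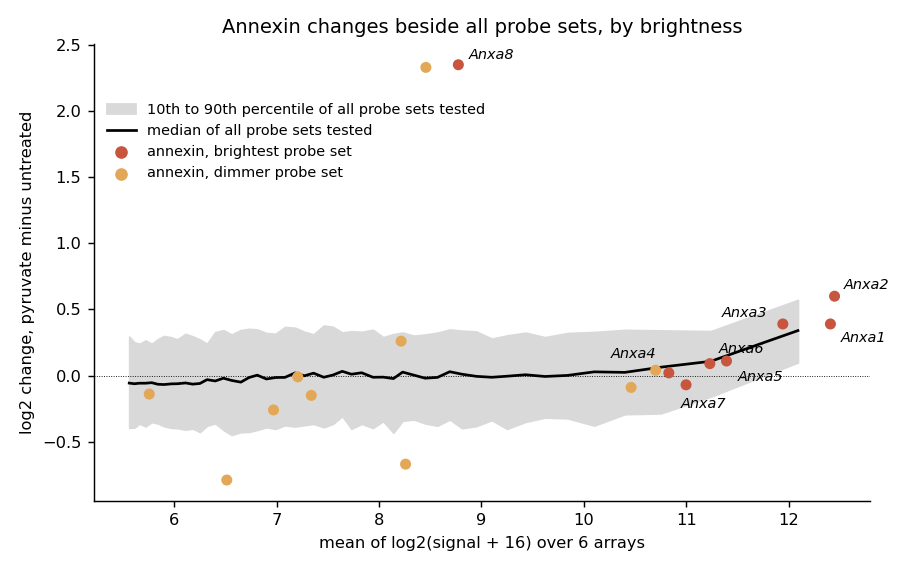
Log2 change (pyruvate minus untreated) against mean log2(signal + 16) over the 6 arrays for annexin probe sets above the signal filter (points), beside the median (line) and the 10th to 90th percentile (band) of all probe sets tested in 50 bins of brightness. The line bends up at the bright end, to 0.340 in the last bin, where Anxa1, Anxa2 and Anxa3 lie, while both Anxa8 probe sets stand far above the band.

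Methods that align the shape of the arrays' distributions gave other values for these 3 genes. With quantile normalization Anxa1 went to -0.06 ± 0.03 (SE), Anxa2 to 0.14 ± 0.04 and Anxa3 to 0.13 ± 0.03. With cyclic loess they stood at 0.19, 0.40 and 0.22. Median centring, which only shifts each array and leaves its shape, put them at 0.42, 0.63 and 0.42, near their values with the authors' scaling. Anxa8 was at 2.35 under quantile normalization, 2.37 under cyclic loess and 2.39 under median centring. Whether the stretch of the bright end came from the cells or from the arrays was not tested.

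**Figure D3:**
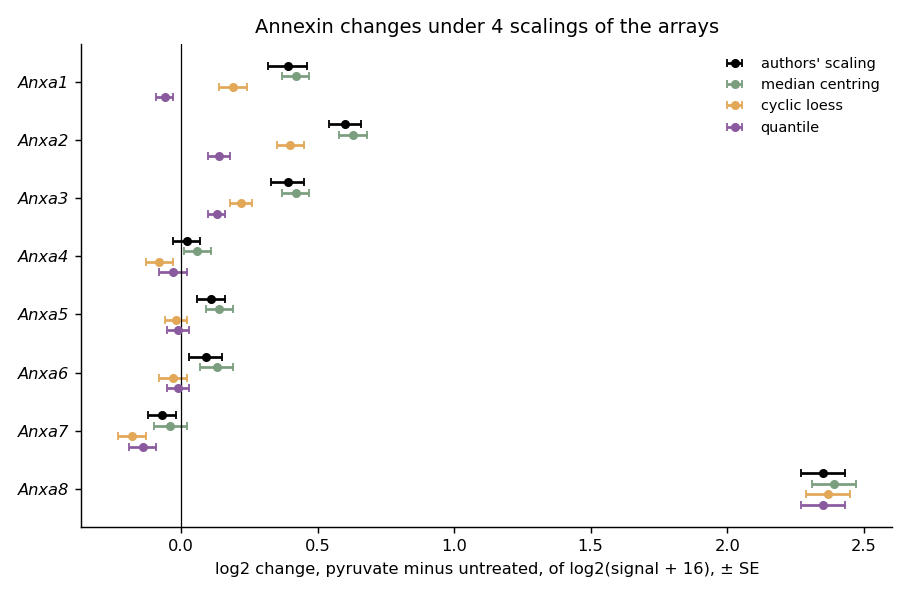
Log2 change ± SE of the brightest probe set of each annexin gene with the authors' scaling and under median centring, cyclic loess and quantile normalization. Anxa8 keeps its value (2.35 to 2.39), Anxa1 crosses 0 under quantile normalization, and Anxa4, Anxa5 and Anxa6 cross 0 under cyclic loess and quantile normalization.

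The remaining annexins were close to their untreated levels on their brightest probe sets. Anxa5, the phosphatidylserine binder used to stain dying cells, had 1 probe set that read 2627.7, 2471.3 and 2625.3 untreated and 2705.8, 2872.2 and 2748.7 with pyruvate. Its groups did not overlap, but the log2 change was only 0.11 ± 0.05 (SE), was not called, and stood at -0.01 and -0.02 under quantile and cyclic loess normalization. Anxa6, which has a doubled annexin core and is known as a modifier of muscular dystrophy in mice, read 2245.2, 2272.5 and 2414.1 untreated and 2334.8, 2624.8 and 2442.5 with pyruvate (0.09 ± 0.06), with overlap. Its 3 dimmer probe sets were at -0.09 ± 0.05, -0.15 ± 0.13 and -0.26 ± 0.12, and none of the 4 was called with the authors' scaling. The second stood at -0.13 under quantile and -0.17 under cyclic loess normalization.

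Anxa4, an annexin of epithelial membranes, gave overlapping groups on its brighter probe sets. The brightest read 1791.2, 1830.3 and 1747.5 untreated and 1845.8, 1916.6 and 1699.2 with pyruvate (0.02 ± 0.05, SE), and the next was at 0.04 ± 0.05. The third read 353.3, 356.4 and 403.5 untreated and 204.0, 224.7 and 254.2 with pyruvate, a log2 change of -0.67 ± 0.08 with no overlap. This is again an x_at probe set, and whether that bears on its fall was not tested. Its change was -0.64 to -0.67 over the scalings run.

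Anxa7, or synexin, which promotes the fusion of secretory granules in test systems, showed a further disagreement between probe sets. The brightest read 2033.3, 1990.4 and 2230.4 untreated and 1935.3, 1983.2 and 2011.3 with pyruvate (-0.07 ± 0.05, SE), with overlap. A dimmer probe set was higher on all pyruvate arrays, at 286.4, 312.3 and 331.7 against 269.4, 224.8 and 274.0 (0.26 ± 0.08). The third gave means of 132 and 133. Under quantile and cyclic loess normalization the brightest stood at -0.14 and -0.18 and the dimmer one at 0.28 in each.

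**Figure D4:**
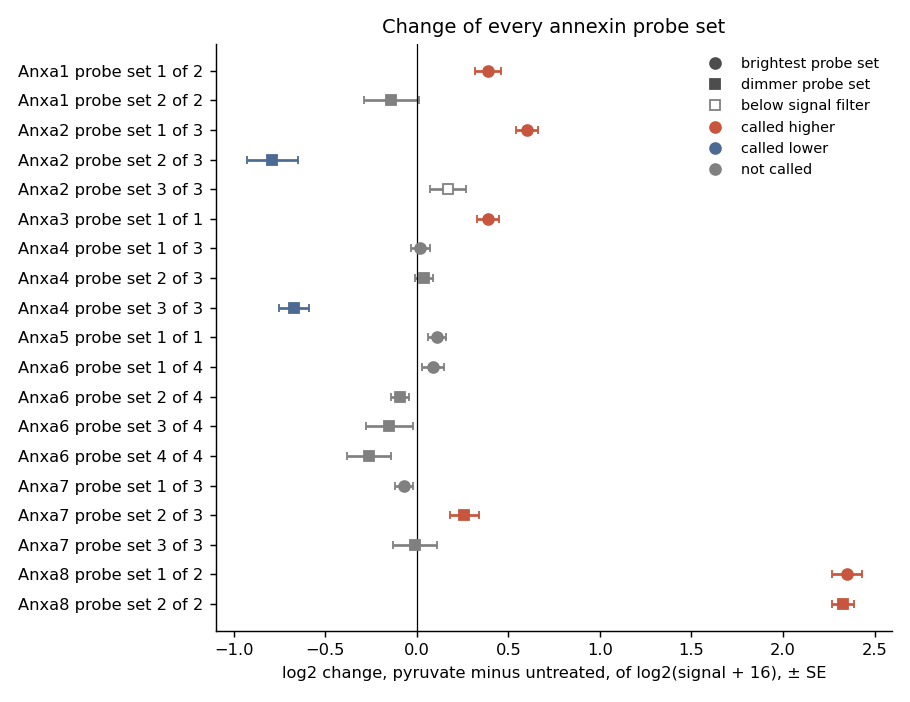
Log2 change ± SE of all 19 probe sets of the 8 annexin genes, ordered by gene and by brightness within a gene; circles are the brightest probe set, squares the others, an open square 1 below the signal filter, and colour gives the limma call at an adjusted p under 0.05. The probe sets of Anxa8 lie together, whereas those of Anxa2, Anxa4 and Anxa7 lie apart.

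Over all 19 probe sets, 18 passed the filter, 6 were called higher and 2 lower, where 32.2% of all 22519 probe sets tested were called in either direction, and the median change was 0.04. Of the 11 dimmer probe sets 2 were called higher and 2 lower. As the mean over its probe sets Anxa4 was at -0.20, Anxa6 at -0.10, Anxa7 at 0.06 and Anxa1 at 0.13, while Anxa8 stayed at 2.34. The annexin genes outside the list were dim. Anxa9 was at 37.4 ± 12.5 and 38.2 ± 13.8 (SD, n = 3; limma adjusted p = 0.96), and Anxa10 and Anxa13 lay below the filter, with mean signals no higher than 21.4 on any of their probe sets.

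Genes that work with annexins were read from lists of 45 genes, of which 40 had a probe set and 32 passed the filter. Of these, 13 rose and 4 fell with pyruvate, with a median log2 change of 0.12 over those above the filter and 0.09 over all 40, beside 0.03 over all genes tested. Against the 32 that passed, the background was 20.7% of all genes tested called higher and 14.5% lower, so the fall in 4 genes was no more frequent than over all genes. Among probe sets as bright as each of the 32, the share called higher ran from 3.4% for Plau to 99.1% for S100a4. The 20.7% is thus no matched background for the 13 rises, and no excess is read from them. The EF-hand partners held 6 of the 13 rises.

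Of the 10 measured S100 and EF-hand partners, 7 passed the filter, 6 rose and 0 fell, beside 20.7% and 14.5% of all genes. Most of the 6 are bright, and among probe sets as bright as S100a10, S100a4 and S100a6 the share called higher was 95.2%, 99.1% and 88.5%. For S100a1, less bright than these 3, it was 22.9%. S100a1, a calcium sensor of striated muscle, rose most. It read 331.0, 299.0 and 344.9 untreated and 524.5, 551.9 and 545.8 with pyruvate, a log2 change of 0.71 ± 0.06 (SE; limma adjusted p = 1.3e-05). Its second probe set rose by 0.77, and the change held at 0.72 to 0.74 under the other scalings. S100a4, a binder of non-muscle myosin and of annexin A2, rose by 0.67 from 4926 ± 257 to 7841 ± 486 (SD, n = 3; adjusted p = 1.5e-05).

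S100a10, whose product is the obligate partner of annexin A2, read 3999.4, 4219.8 and 3969.7 untreated and 5469.7, 6006.7 and 5732.7 with pyruvate, a rise of 0.50 ± 0.05 (SE; limma adjusted p = 4.6e-05). Its other probe sets rose by 0.19 and 0.51. Ahnak, a giant scaffold bound by the annexin A2 and S100A10 complex, rose by 0.34 on its brightest probe set (adjusted p = 0.0021) and by 0.66 and 0.50 on the others above the filter. S100a4, S100a10 and Ahnak are bright, and other probe sets of their brightness had median changes of 0.49, 0.40 and 0.22. Under quantile normalization they stood at 0.16, 0.10 and 0.12, and Ahnak was not called. S100a6, named after its values were seen, rose by 0.30 (adjusted p = 0.0018) but stood at -0.05 under quantile normalization (adjusted p = 0.36).

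**Figure D5:**
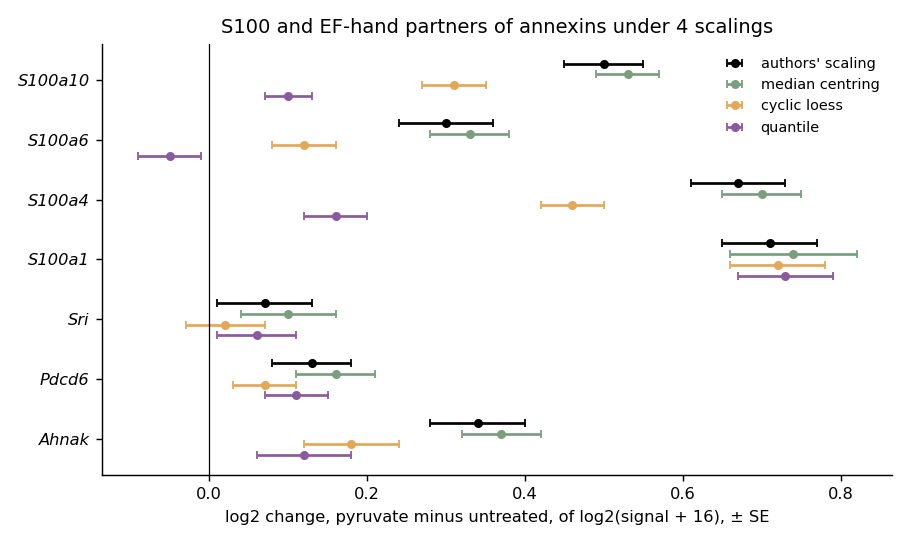
Log2 change ± SE of the 7 S100 and EF-hand partner genes above the signal filter with the authors' scaling and under median centring, cyclic loess and quantile normalization. S100a1 keeps its value (0.71 to 0.74), while S100a10, S100a4, S100a6 and Ahnak shrink under cyclic loess and more under quantile normalization, where S100a6 crosses 0.

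Among 10 genes of plasma membrane repair, 7 passed the filter, of which 2 rose and 1 fell, close to the background of 20.7% and 14.5%. Myof, encoding the dysferlin relative myoferlin, rose by 0.34 from 1435 ± 135 to 1817 ± 64.8 (SD, n = 3; limma adjusted p = 0.0022). The calpain small subunit Capns1 rose by 0.22 (adjusted p = 0.016) and the protease gene Capn1 fell by 0.27 (adjusted p = 0.036), though Capns1 was not called under quantile or cyclic loess normalization (0.09 in each). Capns1 also lost its call without the first untreated (0.18) or the third pyruvate array (0.21), and Capn1 under median centring (-0.24) and without any 1 array but the first pyruvate array (-0.21 to -0.28). Both genes lost their calls with no signal filter and in limma without the variance trend. The second Capn1 probe set, of like brightness, was not called (0.04, adjusted p = 0.75). Dysf, Trim72 and Cav3, the dysferlin, MG53 and caveolin-3 genes of mature muscle fibres, were below the filter, with mean signals of 15.5, 5.43 and 3.43 in untreated cells.

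Of the 7 genes of the ESCRT machinery, which pinches off damaged membrane, all passed the filter, 3 rose and 2 fell, beside 20.7% and 14.5% of all genes. Tsg101 rose by 0.24 (limma adjusted p = 0.0035) and Chmp4b by 0.22 (adjusted p = 0.0035), though the second Chmp4b probe set was at -0.01 (adjusted p = 0.92). Vps4b fell by 0.23 (adjusted p = 0.018) but was not called without the third untreated array (-0.19) or under median centring (-0.19), and its dimmer probe sets were not called (-0.22 and 0.04). Vps4b also lost its call with no signal filter and in limma without the variance trend. Pdcd6ip, the ALIX gene, fell by 0.56 on its brightest probe set (adjusted p = 3.1e-04), but its other 4 probe sets were not called, at -0.20 to 0.14. Of the 3 measured genes for annexin A1 receptors and phospholipase A2, Fpr2 was below the filter at 17.5 and 19.5, and the cytosolic phospholipase gene Pla2g4a rose by 0.33 (adjusted p = 0.019). Pla2g4a lost its call without the first (0.32) or second untreated array (0.33) or the second pyruvate array (0.22). It also lost its call with no signal filter and in limma without the variance trend.

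For the plasminogen system, which the annexin A2 complex localises, 3 of 4 measured genes passed the filter, of which 1 fell and 0 rose, beside 14.5% and 20.7% of all genes. Plau, the urokinase gene, fell by 0.56 from 42.7 ± 5.95 to 23.7 ± 2.84 (SD, n = 3; limma adjusted p = 0.011), a pyruvate level under the filter. It was not called without the third untreated array (-0.48) or with no signal filter. Among 6 genes that expose or hide phosphatidylserine, the lipid that annexin A5 binds, 1 rose and 0 fell on the brightest probe sets, beside 20.7% and 14.5% of all genes. That gene was the scramblase Xkr8, which rose by 0.47 from 43.8 ± 5.65 to 66.7 ± 3.87 (limma adjusted p = 0.013), and was not called without the third untreated array (0.40). Second probe sets of this list, named after their values were seen, differed from the brightest. Those of the scramblase-family gene Plscr1 (-0.42, limma adjusted p = 0.0016) and the flippase subunit gene Tmem30a (-0.33, adjusted p = 0.001) were lower, and that of Plscr3 was higher (0.30, adjusted p = 0.022), where the brightest were at -0.17, -0.02 and 0.05 and not called.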

How the data were processed

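RNA from 6 C2C12 samples was hybridised to Affymetrix Mouse430_2 arrays, 1 per sample. The deposited values are MAS5 signals, a linear intensity per probe set, per the submitters' processing notes; the sources used here do not give its version. As deposited by the authors, each array has a trimmed mean of 150.0 (2% trimmed at each end), a scaling that fixes the overall level but not the shape of the distribution. It was kept. Arrays carry no read depth, and their number limits the precision.

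Control probe sets (64) were left out. Of the other 45037, 34945 carried 1 platform gene symbol, 932 several and 9160 none, and only the first were named; symbols were checked by Entrez identifier against RefSeq (GRCm38.p6, names only). The brightest probe set stood for its gene. The fit used limma 3.58.1 in R 4.3.3 (lmFit, eBayes with trend, two-sided) on log2(signal + 16), with Benjamini-Hochberg adjustment over 22519 probe sets and a threshold of 0.05; the code was tested on simulated data. Members, lists, motifs and tests were chosen with earlier results of these data known. All members were named, with the 4 most changed called genes of each partner list (2 genes where none was called), other annexins, and the 3 nearest profiles of the 2 most changed members. Dysf, Trim72, Cav3, Fpr2, S100a6, Pdcd6 and the markers named singly were chosen after their values were seen. Motif searches, windows of 0.25 in log2 brightness and chromosomal neighbours were added after the values were seen. Figures used matplotlib 3.10.9. Alternatives were other pseudocounts, filters, scalings, variance settings and array weights, a block for the replicate number, averaging a gene's probe sets, and leaving out each array.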

Additional observations from a re-analysis of the deposited data

How the results depend on the processing

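The 3 counts (all probe sets, annexins, partner genes) stayed within 1.5 times of their values in 51 of 53 recalculations, where the annexin count only describes genes chosen on this contrast. The exceptions were the partner genes, 17 of which were called, against 11 with no signal filter and 11 in limma without the variance trend. Among annexin values, 284 of 309 moved by less than the spread between arrays, 23 moved by more, and 2 reversed: Anxa1 to -0.06 under quantile normalization and Anxa2 to -0.01 as the mean over its probe sets. Other filters, variance settings and the replicate block cannot change a log2 value here, so many of the 284 were fixed in advance. That count is therefore no measure of stability. Of the partner genes, S100a6 reversed, to -0.05, under quantile normalization. Pdcd6, named after its values were seen (0.13, limma adjusted p = 0.046), lost its call in 10 alternatives, and Capn1 in 8, including every array left out but the first pyruvate array. Over all probe sets tested, replicate numbers did not pair the arrays (deviations of same-numbered arrays correlated at -0.01 to 0.02). For Anxa1, Anxa2 and Anxa3 the second array was nonetheless the highest in each group. With the number as a replicate block, 6917 probe sets were called against 7250. Median centring put 59.2% of all calls on the higher side, against 50.7%. Probe sets near a signal of 30.3 have little resolution, which limits Anxa9, Anxa10, Anxa13 and the dim Anxa1 and Anxa2 probe sets.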
